A study of Mus musculus with 6 samples.

Results

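Nuclear receptor genes were compared between 2 stromal fractions of mouse bone marrow. They are the 42 genes, of 19938 tested, whose symbol follows the receptor nomenclature (Nr, Esr, Esrr, Ppar, Rar, Rxr, Ror, Thr and Vdr). Nr1h2 and Nr2e3 have this spelling too and were not analysed here. Receptor genes with other names, such as Pgr, fall outside the rule. Each member was represented by 1 probe set on the array. The cells were freshly isolated from marrow of unstated strain and age, were sorted as negative for CD45 (leukocytes) and Ter119 (red cell precursors) and positive for the ectoenzyme CD73, and were divided by CD105, which gave 3 CD73+CD105- and 3 CD73+CD105+ samples. No sample had a treatment other than tissue dissociation and sorting. The labels call the samples biological replicates and do not tie them to separate animals. The p-values therefore reflect sample-to-sample spread, which may be technical. A positive difference below means a higher log2 value in CD73+CD105+ cells.

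Nuclear receptors are transcription factors, many of which are switched by small lipophilic ligands such as retinoic acid, thyroid hormone, vitamin D, steroids, oxysterols and fatty acids. Most hold a zinc finger domain that reads short DNA half-sites and a ligand-binding domain that exchanges corepressors for coactivators. Many of subfamily 1 bind DNA as partners of the RXR proteins, steroid receptors bind mainly as homodimers, and others, such as the NR4A proteins, act without a known classical ligand. In marrow stroma, PPAR gamma is known for driving adipocyte formation, the vitamin D and glucocorticoid receptors for effects on osteoblasts, and COUP-TFII (Nr2f2) for the identity of venous endothelium.

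Half-sites are short enough to be shown in a promoter. RefSeq (GRCm38.p6) start sites were found for 39 of the 42 members, and not for Nr3c1, Nr5a1 and Thra. The 250 bases before the start are printed for Nr2f2, the member that passed the threshold, and for Rarb, a receptor gene that retinoic acid receptors are known to switch on. Nr2f2 lies on the minus strand at chr7:70366747-70366996 and Rarb on the minus strand at chr14:16575477-16575726, both written 5′ to 3′. Capitals mark the retinoic acid element of Rarb, less the g that opens its first half-site (gGTTCA).
Nr2f2: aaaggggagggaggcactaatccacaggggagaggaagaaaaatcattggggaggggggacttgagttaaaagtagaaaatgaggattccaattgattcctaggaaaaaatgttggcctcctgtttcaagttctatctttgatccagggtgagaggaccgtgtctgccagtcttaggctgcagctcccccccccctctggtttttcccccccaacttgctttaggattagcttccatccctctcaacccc
Rarb: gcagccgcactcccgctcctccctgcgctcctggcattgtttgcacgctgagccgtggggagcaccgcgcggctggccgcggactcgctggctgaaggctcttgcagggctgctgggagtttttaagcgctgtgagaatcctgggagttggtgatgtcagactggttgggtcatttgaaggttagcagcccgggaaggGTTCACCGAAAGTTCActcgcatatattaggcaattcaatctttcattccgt

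The capitals, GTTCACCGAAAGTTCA, begin 52 bases before the Rarb start and follow the pattern GTTCANNNNNAGTTCA. In it a half-site without its first base and the half-site AGTTCA stand 5 bases apart in the same direction. On either strand this pattern was found in 9 of 32851 mouse promoter windows of the same length (0.0274%), and Rarb held it alone among the members. The pattern leaves out the base where the Rarb element has g, so the match in Rarb follows from this spelling and is no finding. Direct repeats of the full receptor half-site named next, with 5 bases or 1 base between, were in 0 of 59 member windows. They were in 3 and 11 of the 32851 windows, too few for that 0 to set the members apart. The half-site AGGTCA was present in 11 of 59 member windows (18.6%) and in 14% of all windows, and AGTTCA in 8 of 59 (13.6%) and 11.8%. The Nr2f2 window held neither of these, nor GGGCGG or TATAAA, on either strand. A match is a description of letters and not of binding, and the absence of one says only that those letters are not in this window.

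The arrays gave RMA log2 values with medians between 6.27 and 6.35 over 35556 probe sets, and their number limits the precision (median standard error of a member's difference 0.0897). Values of different genes come from different probes and are not compared as levels of expression. As a coarse guide to dim signals, the 1194 olfactory and vomeronasal receptor genes had their 95th percentile at 6.01. Gene by gene, the replicate 1 arrays averaged nearly the same as the other 4 arrays together (SD of the gap 0.0423 over genes, against 0.122 or more for the 8 other cross-population pairs). No label describes this. Whether the values were adjusted for a batch before deposit is not given in the sources used here, and such a step would change what the standard errors and p-values measure. The main values are therefore given beside those with a term for replicate 1 where a call is at stake. Eng, which encodes CD105, was 1.76 higher in CD73+CD105+ cells (SE 0.15, limma adjusted p = 0.00322). Nt5e, which encodes CD73, differed by -0.26 (adjusted p = 0.183), and Ptprc, which encodes CD45, lay between 4.66 and 4.76 on all arrays.

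Of the 42 nuclear receptor genes 1 passed the threshold, Nr2f2, which was 2.14-fold higher in CD73+CD105+ cells, and 0 were lower (limma, Benjamini-Hochberg adjusted p under 0.05 over all genes). That is 2.38% of the members, against 1.82% of all genes tested, or 1.35% counted in the higher and 0.466% in the lower direction alone. At an unadjusted p under 0.05 there were 5 members (11.9%), Nr2f2, Rara, Thrb, Pparg and Nr1h3, against 17.7% of all genes. The groups did not overlap in 11 members (26.2%), 6 higher and 5 lower, against 23.7% of all genes (10.7% higher and 12.9% lower). Both shares are near the background and are no result about the family.

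The other 41 differences were smaller than 0.5 on the log2 scale. Over all 42, differences stood above 0 in 20 members and below 0 in 22, with a median of -0.01, and the median over all genes was -0.02. The median size without regard to sign was 0.086 in the members and 0.105 in all genes. In 34 members the whole 95% interval of the difference lay between -0.5 and 0.5, so a change as large as that of Nr2f2 lies outside the interval for each of these. In both populations 25 members stood above the olfactory receptor percentile and 16 below it. Nr1h3 was above it in CD73+CD105- cells alone, by group mean. Among the 16 dim members differences ran from -0.17 to 0.26, and RMA compresses differences of dim probe sets.

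**Figure D1:**
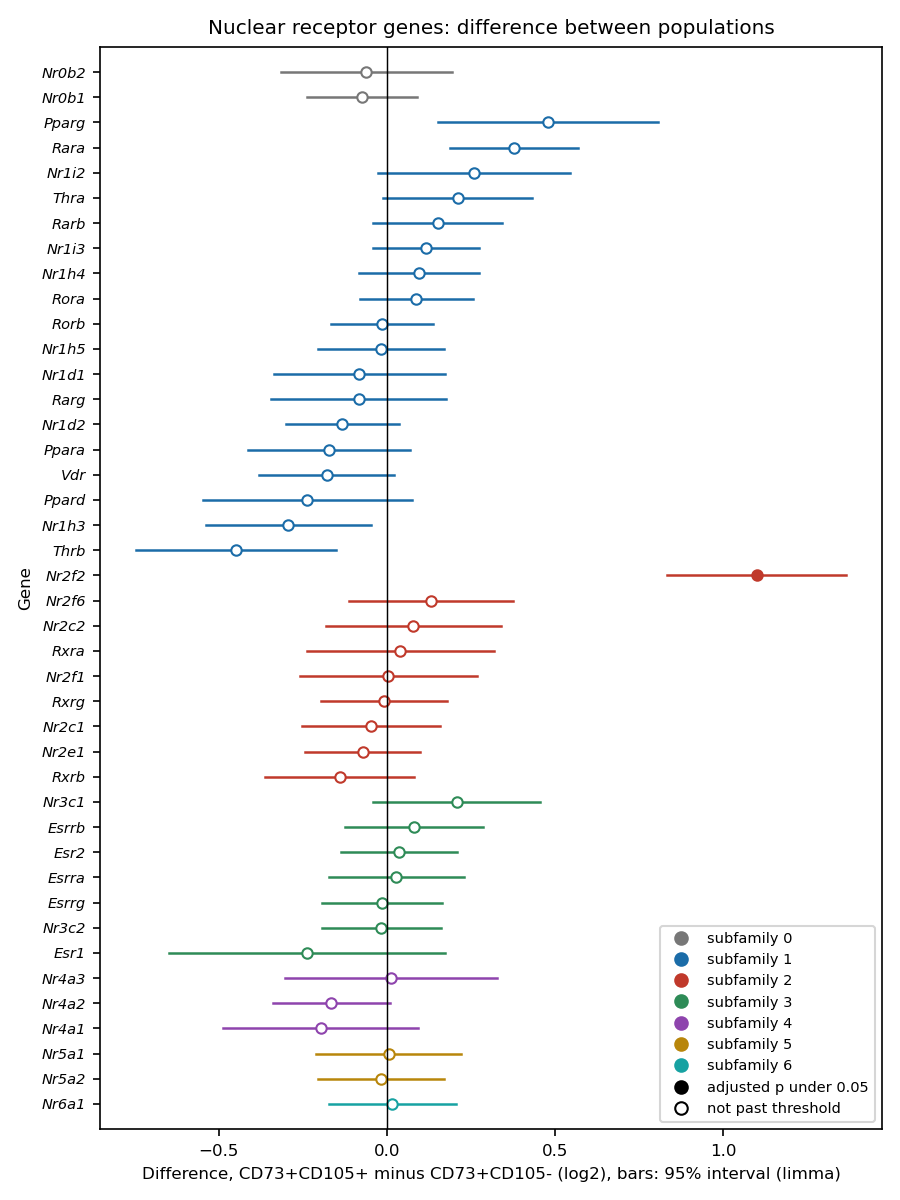
Difference between populations for each of the 42 genes (log2, CD73+CD105+ minus CD73+CD105-) with its 95% interval from limma, coloured by receptor subfamily; filled points passed the adjusted threshold. Nr2f2 stands alone at 1.10, and the other points lie between -0.45 and 0.48.

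Nr2f2 encodes COUP-TFII, an orphan receptor of subfamily 2 that is known for repressing arterial genes in veins and is also made by mesenchymal cells. Its values were 6.14, 5.91 and 6.28 in CD73+CD105- replicates 1, 2 and 3, and 7.29, 7.07 and 7.27 in CD73+CD105+ replicates 1, 2 and 3. All arrays of the second group were above all of the first, with a gap of 0.79 between the nearest. The group means were 6.11 ± 0.19 and 7.21 ± 0.12 (SD, n = 3 each), with a difference of 1.10 (SE 0.11, 95% interval 0.83 to 1.37, limma adjusted p = 0.00696). With the term for replicate 1, under which 0.507% of all genes passed, the adjusted p was 0.0226, and between replicates 2 and 3 alone the difference was 1.07 with an adjusted p of 0.179. The CD73+CD105- mean lay close to the olfactory receptor percentile, so the fold may be understated.

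Markers of endothelial, reticular and pericyte cells moved with Nr2f2. Of 12 endothelial marker genes 10 were higher and 0 lower in CD73+CD105+ cells, and the mean of the list lay between 6.01 and 6.27 in CD73+CD105- arrays and between 7.92 and 8.16 in CD73+CD105+ arrays. With the term for replicate 1, 7 of the 12 passed. In CD73+CD105- cells 6 of the 12 (Pecam1, Emcn, Kdr, Tek, Ptprb and Esam) were below the olfactory receptor percentile. Of 8 reticular stroma markers 6 were higher (mean of the list 8.23 to 8.49 against 9.16 to 9.35), and of 9 pericyte and smooth muscle markers 4 were (7.41 to 7.58 against 7.96 to 8.18). With that term 2 of the 8 and 1 of the 9 passed. In these lists the markers below 0 were Foxc1 among the reticular ones (-0.17) and Cspg4 among the pericyte ones (-0.47, limma adjusted p = 0.0634), and neither passed. Chondrocyte markers lay the other way, with 8 of 8 below 0 (median -0.29) and 0 past the threshold. The 3 measured neural and glial markers were also below 0, and 0 passed. The part of these cells in the Nr2f2 difference was not tested. In bulk samples fewer cells of a type and less RNA per cell cannot be told apart.

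**Figure D2:**
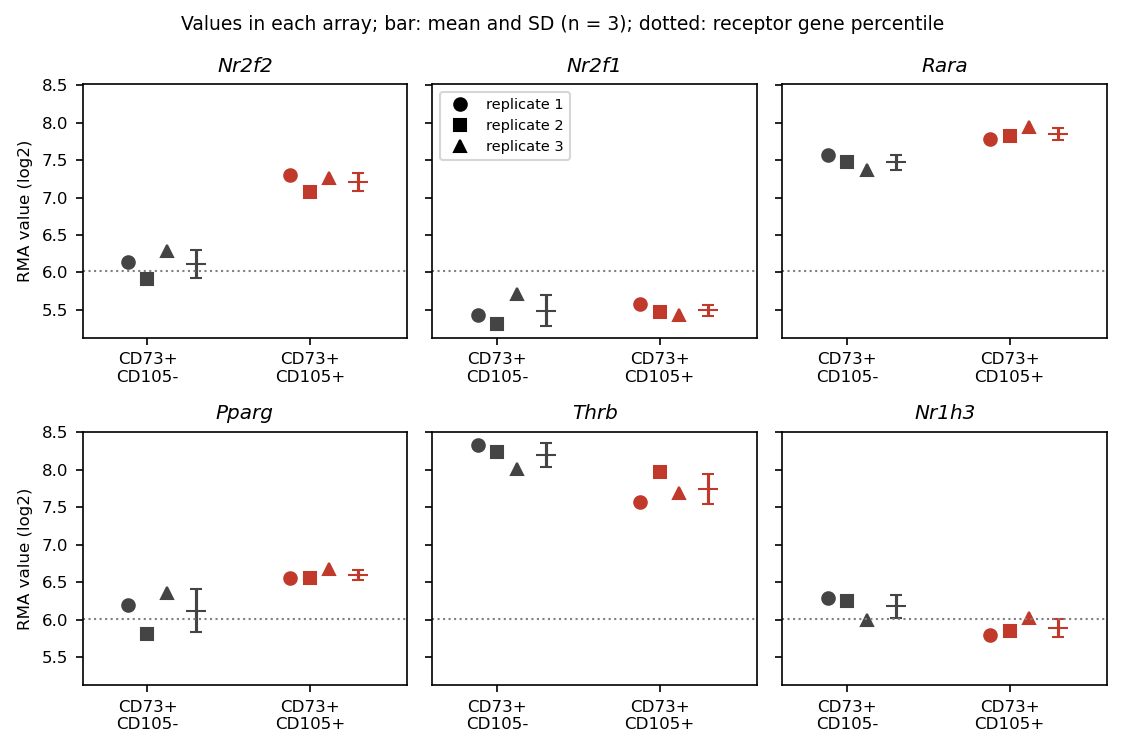
RMA log2 values of 6 members in each array, by population and replicate, with the mean and SD (n = 3) beside them and the olfactory receptor percentile as a dotted line. For Nr2f2 the arrays of CD73+CD105+ cells, at 7.07 to 7.29, lie above those of CD73+CD105- cells, at 5.91 to 6.28, while for Nr2f1 and Nr1h3 the groups overlap.

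A list of 13 venous and arterial genes stands closest to the known role of Nr2f2. Of these 1 rose, Aplnr, a receptor of venous and sprouting endothelium, and 0 fell, with a list median of 0.15. Aplnr stood at 6.31, 6.35 and 6.53 in CD73+CD105- cells and at 8.86, 8.53 and 8.69 in CD73+CD105+ cells, a 4.92-fold difference (adjusted p = 0.000272; 0.00105 with the term for replicate 1). Nrp2, a co-receptor of veins and lymphatics, was at 0.58, short of the threshold (adjusted p = 0.053). Differences stood above 0 in 12 of the 13, and the exception was Efnb2, an arterial ligand (-0.15, limma adjusted p = 0.344), whose groups overlapped. Other genes used as arterial markers stood above 0, among them Nrp1 (0.48, adjusted p = 0.0568), Hey2 (0.38, adjusted p = 0.272) and Notch1 (0.25, adjusted p = 0.123). None of these passed, and venous and arterial genes were not compared as groups. The venous receptor gene Ephb4 differed by 0.08 and the arterial ligand gene Dll4 by 0.07, and neither passed. In both populations 5 of the 13, Dll4 and Hey2 among them, were below the olfactory receptor percentile.

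The close relatives of Nr2f2 did not pass. Nr2f1, which encodes COUP-TFI, stood at 5.43, 5.31 and 5.72 in CD73+CD105- cells and at 5.57, 5.47 and 5.43 in CD73+CD105+ cells. The groups overlapped around a difference of 0.00415 (95% interval -0.26 to 0.27), below the olfactory receptor percentile in both. Nr2f6, a further COUP-TF, differed by 0.13 (interval -0.11 to 0.38). The difference between Nr2f2 and these relatives was not itself tested.

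Of the 9 members of subfamily 2, the other 8 lay between -0.14 and 0.13. They include the RXR genes, whose proteins are the shared partners of the retinoid, thyroid, vitamin D, PPAR and LXR receptors. Rxra differed by 0.04 (95% interval -0.24 to 0.32), Rxrb by -0.14 (-0.36 to 0.08), and Rxrg, below the olfactory receptor percentile, by -0.01 (-0.20 to 0.18). The testicular orphan receptor genes Nr2c1 and Nr2c2 differed by -0.05 and 0.08, and Nr2e1, a receptor of neural stem cells, by -0.07 from a dim signal. No member of subfamily 2 except Nr2f2 had groups that did not overlap, 1 of 9 against 23.7% of all genes.

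Among the retinoic acid receptors Rara came closest to the threshold. It stood at 7.56, 7.47 and 7.37 in CD73+CD105- cells and at 7.78, 7.82 and 7.94 in CD73+CD105+ cells, so all arrays of the second group were the higher ones, with a gap of 0.22. The difference of 0.38 (SE 0.08, 95% interval 0.19 to 0.57) is 1.3-fold and did not pass (adjusted p = 0.0714; 0.205 with the term for replicate 1). With array weights, under which 1331 genes passed against 363 in the main fit, it did (0.0494). Rarb, whose promoter holds the element printed above, was at 6.37, 6.53 and 6.55 against 6.73, 6.61 and 6.57, with groups parted by 0.02 and a difference of 0.15 that did not pass (interval -0.04 to 0.34, adjusted p = 0.393). Rarg, the form best known from cartilage and skin, differed by -0.08 with overlapping groups (-0.34 to 0.18).

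Genes that make, bind and degrade retinoids were not past the threshold either. Of 14 measured, 0 passed and 4 were under 0.05 before adjustment in limma, with a list median of 0.10. Crabp1, which binds retinoic acid in the cytosol, stood at 7.94, 7.76 and 8.66 in CD73+CD105- cells and at 9.48, 8.68 and 9.76 in CD73+CD105+ cells. The groups did not overlap, but the spread within each was wide, and the difference of 1.19 (SE 0.32) did not pass (adjusted p = 0.122). It passed with array weights (0.0288) and not with the term for replicate 1 (0.239). Rbp7, a retinol-binding protein of capillary endothelium, differed by 0.76 from a dim signal (adjusted p = 0.0634). Its adjusted p was 0.152 with the term for replicate 1 and 0.0356 with array weights. The retinoic acid synthase gene Aldh1a2 differed by 0.37 and the degrading enzyme gene Cyp26a1, a direct retinoid target, by 0.38, and neither passed. Dhrs3, which turns retinal back to retinol, differed by -0.01.

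The thyroid hormone receptor genes differed in opposite directions, and neither passed. Thrb stood at 8.33, 8.24 and 8.02 in CD73+CD105- cells and at 7.58, 7.97 and 7.69 in CD73+CD105+ cells, lower in all arrays of the second group with a gap of 0.05. The difference of -0.45 (SE 0.13, 95% interval -0.75 to -0.15) gave an adjusted p of 0.132. With the term for replicate 1 it was 0.275, and with array weights 0.0327. Thra was at 9.22, 9.36 and 9.44 against 9.69, 9.50 and 9.46, a difference of 0.21 (interval -0.01 to 0.43, adjusted p = 0.306) with groups parted by 0.02. In replicate 1 the Thra difference was 0.47 and in replicates 2 and 3 it was 0.08.

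Of 7 thyroid hormone genes 1 fell and 0 rose (median -0.01). The one that fell was Me1, malic enzyme, a classic thyroid hormone target of liver that supplies NADPH, at 10.09, 10.19 and 10.21 in CD73+CD105- cells and 9.70, 9.77 and 9.76 in CD73+CD105+ cells. The groups did not overlap and the difference was -0.42 (SE 0.07, adjusted p = 0.0329). With the term for replicate 1 the adjusted p was 0.106, and without any 1 of the 6 arrays it was 0.0689 to 0.165. Thrsp, another liver target, differed by 0.29 with overlapping groups, and Dio2, the deiodinase that activates the hormone, by 0.02.

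Vdr, the vitamin D receptor gene, was at 8.16, 8.34 and 8.12 in CD73+CD105- cells and at 8.06, 7.94 and 8.09 in CD73+CD105+ cells. The groups were parted by 0.03, and the difference of -0.18 (95% interval -0.38 to 0.02) did not pass (adjusted p = 0.33). Of 5 measured vitamin D genes 0 passed, and 0 were under 0.05 before adjustment in limma. The hydroxylase genes Cyp2r1 and Cyp27a1 differed by 0.31 and 0.25 with overlapping groups, and Tnfsf11, which encodes the osteoclast factor RANKL and is induced by vitamin D in stroma, by 0.03.

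**Figure D3:**
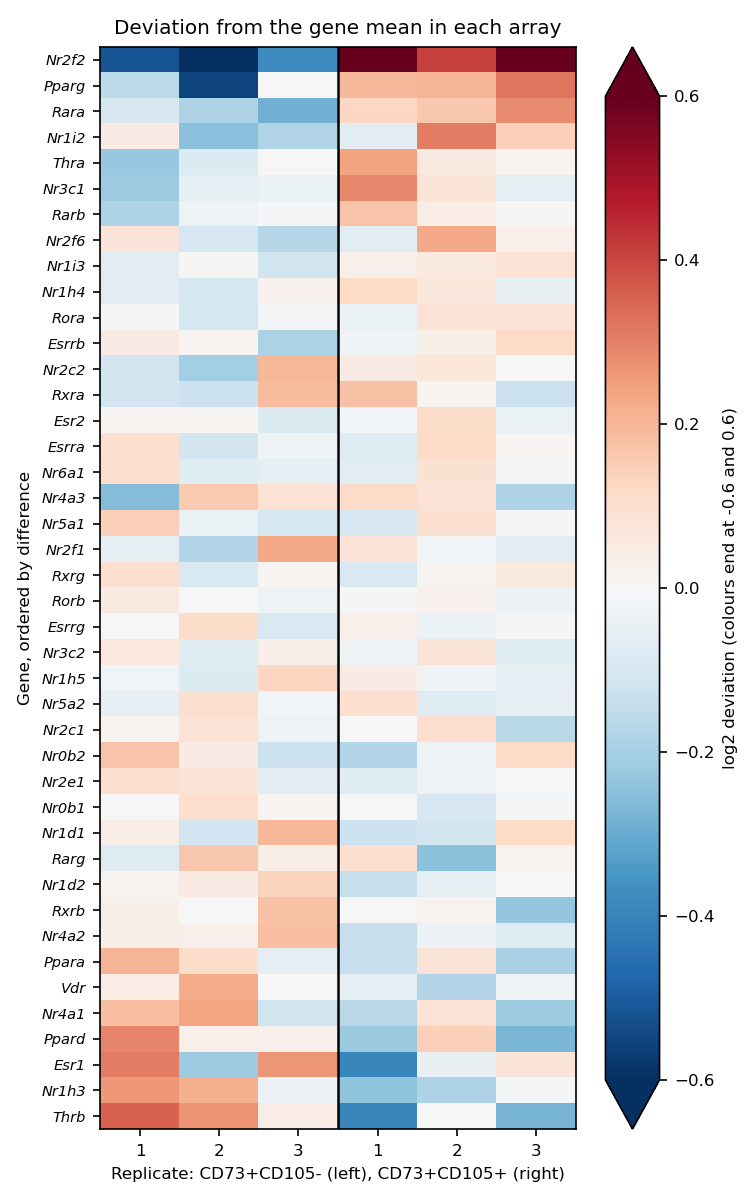
Deviation of each array from the gene's mean over the 6 arrays (log2) for the 42 genes, ordered by difference, with CD73+CD105- arrays left of the line and CD73+CD105+ arrays right of it. Nr2f2 at the top changes sign at the line in every array, and rows in the middle, such as Nr4a3 and Nr2f1, hold both signs on each side of it.

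Among the PPAR genes, whose proteins are fatty acid sensors, Pparg had the largest difference of subfamily 1 but did not pass. It stood at 6.20, 5.81 and 6.36 in CD73+CD105- cells and at 6.55, 6.56 and 6.68 in CD73+CD105+ cells. The groups did not overlap (gap 0.20), and CD73+CD105- replicate 2 lay lowest. The means of 6.12 ± 0.28 and 6.60 ± 0.07 (SD, n = 3 each) differed by 0.48 (SE 0.14, 95% interval 0.15 to 0.80, adjusted p = 0.142). Ppard, the widely expressed form, differed by -0.24 (-0.55 to 0.07) and Ppara, the liver form of fatty acid oxidation, by -0.17 from a dim signal (-0.41 to 0.07), both with overlapping groups.

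Of 16 measured genes known as PPAR targets 4 rose and 0 fell. Cd36, a fatty acid transporter, rose 26.5-fold, Fabp4, a fatty acid binding protein, 17.4-fold, Adipoq, adiponectin, 2.49-fold, and Lpl, lipoprotein lipase, 2.38-fold. Cd36 was below the olfactory receptor percentile in CD73+CD105- cells (4.27, 4.57 and 4.72 against 9.64, 8.71 and 9.40), so its fold is measured from a dim signal. The adjusted p-values of the 4 genes were 0.000318, 2.95e-05, 0.0337 and 0.0226 in limma, and with the term for replicate 1 those of Adipoq (0.0821) and Lpl (0.0643) did not pass. Lpl also missed without replicate 1 of either population (0.0873 for CD73+CD105- and 0.0865 for CD73+CD105+) or CD73+CD105+ replicate 3 (0.0769). Adipoq missed without CD73+CD105- replicate 1 (0.102) or any 1 CD73+CD105+ array (0.0682 to 0.116). Lpl was at 8.19, 7.82 and 8.52 against 9.46, 9.22 and 9.61, with no overlap. The list median was 0.06, since the other 12 lay between -0.31 and 0.47. Those include the lipid droplet genes Plin1 (-0.11) and Plin4 (-0.03), the fatty acid oxidation gene Cpt1a (0.43, adjusted p = 0.0694) and the lipase inhibitor gene Angptl4 (0.47, adjusted p = 0.188). Capillary endothelium is another known source of Cd36 and Fabp4 transcripts. Of 5 adipocyte markers 1 was higher, Adipoq, and Cidec and Lep were below the olfactory receptor percentile in both populations. Adipoq is also on the list of reticular stroma markers. The part of these cells in the differences was not tested.

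**Figure D4:**
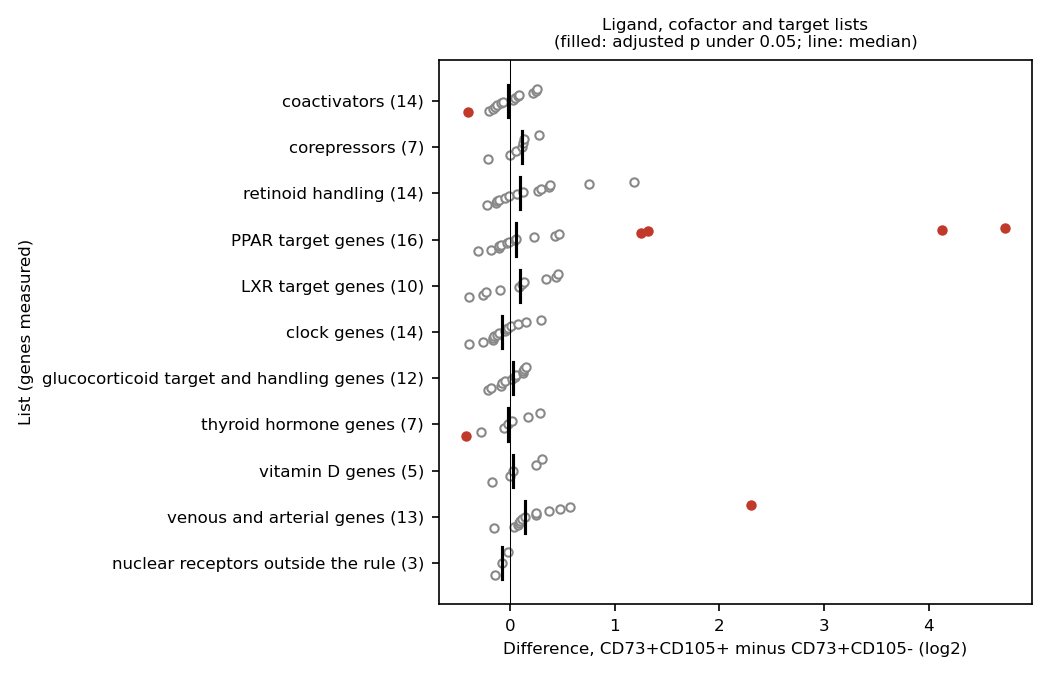
Difference between populations (log2) for each measured gene of 11 lists of ligand-handling, cofactor and target genes, with the list median as a line; filled points passed the adjusted threshold. The filled points far to the right are Cd36, Fabp4, Aplnr, Adipoq and Lpl, the 2 on the left are Me1 and Pprc1, and the medians lie between -0.08 and 0.15.

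Nr1h3, which encodes the oxysterol receptor LXR alpha, had values of 6.29, 6.24 and 5.996 in CD73+CD105- cells and 5.79, 5.84 and 6.02 in CD73+CD105+ cells. The groups overlapped near the olfactory receptor percentile, and the difference of -0.29 (95% interval -0.54 to -0.05) did not pass (adjusted p = 0.21). Of 10 LXR target genes 0 passed and 5 were under 0.05 before adjustment in limma, with a median of 0.10. The cholesterol exporter gene Abca1 differed by 0.46 (adjusted p = 0.106, 0.234 with the term for replicate 1 and 0.0318 with array weights). Pltp, which transfers phospholipids to lipoproteins, differed by 0.44 (adjusted p = 0.184). The lipogenic enzyme gene Fasn differed by -0.39 and Srebf1, its activator, by -0.23. The bile acid receptor gene Nr1h4 and its relative Nr1h5 were dim and differed by 0.09 and -0.02. The xenobiotic receptor genes Nr1i2 and Nr1i3, best known from liver, were dim as well, at 0.26 (-0.03 to 0.54) and 0.12 (-0.04 to 0.27).

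The REV-ERB and ROR receptors compete for the same sites and set the phase of the circadian clock. Nr1d1, which encodes REV-ERB alpha, was at 10.25, 10.10 and 10.41 in CD73+CD105- cells and 10.08, 10.10 and 10.33 in CD73+CD105+ cells, overlapping groups with a difference of -0.08 (95% interval -0.34 to 0.17, adjusted p = 0.743). Nr1d2 stood at 9.65, 9.68 and 9.76 against 9.49, 9.57 and 9.63, lower in all arrays of the second group by a gap of 0.02, and its difference of -0.13 did not pass (interval -0.30 to 0.04, adjusted p = 0.389). Rora differed by 0.09 (-0.08 to 0.26, adjusted p = 0.574) and Rorb, a dim signal here, by -0.01. Of 14 measured clock genes 0 passed, 1 was under 0.05 before adjustment in limma, and the median was -0.08. The repressor gene Bhlhe41 differed by -0.39 and the activator gene Hlf by 0.29, both with overlapping groups, and the core activator genes Arntl and Clock by 0.01 and 0.08.

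Of the 7 members of subfamily 3, the steroid and oestrogen-related receptors, 0 passed, and in 0 of them did the groups separate. Over all genes 1.82% passed and 23.7% had groups that did not overlap, so with 7 members these counts do not set the subfamily apart. Esr1, oestrogen receptor alpha, was at 8.66, 8.14 and 8.62 in CD73+CD105- cells and 7.96, 8.31 and 8.43 in CD73+CD105+ cells. The spread within each population was as large as the difference of -0.24 (95% interval -0.65 to 0.17, adjusted p = 0.525), the widest interval of any member. Nr3c1, the glucocorticoid receptor gene, stood at 8.87, 9.03 and 9.05 against 9.38, 9.17 and 9.03, a difference of 0.21 (-0.04 to 0.45, adjusted p = 0.359). Esrra, a regulator of mitochondrial genes, differed by 0.03 (-0.17 to 0.23). Esr2, Esrrb, Esrrg and the mineralocorticoid receptor gene Nr3c2 were below the olfactory receptor percentile in both populations and lay between -0.02 and 0.08.

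Of 12 glucocorticoid target and handling genes 0 passed, and 0 had an unadjusted p under 0.05 in limma (median 0.03). The phosphatase gene Dusp1 differed by -0.21 and Errfi1, an inhibitor of the EGF receptor, by -0.18. The more selective targets Tsc22d3 and Fkbp5 differed by 0.02 and 0.05.

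The NR4A genes are immediate early genes, induced within minutes by many stimuli, tissue dissociation among them. Nr4a2 (NURR1) was at 10.23, 10.22 and 10.38 in CD73+CD105- cells and 10.06, 10.16 and 10.12 in CD73+CD105+ cells, lower in the second group by a gap of 0.06. Its difference of -0.17 did not pass (95% interval -0.34 to 0.01, adjusted p = 0.304). Nr4a1 (NUR77) stood at 10.07, 10.13 and 9.77 against 9.72, 9.98 and 9.68 and overlapped, with a difference of -0.20 (-0.49 to 0.09, adjusted p = 0.456). Nr4a3 differed by 0.01 (-0.30 to 0.33), at 7.66, 8.08 and 8.01 against 8.04, 8.01 and 7.74.

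The remaining members belong to small subfamilies. Nr5a1 (SF-1), of steroid-producing tissues, differed by 0.00472 (95% interval -0.21 to 0.22), and Nr5a2 (LRH-1) by -0.02 from a dim signal (-0.21 to 0.17, adjusted p = 0.931). Nr6a1, a receptor of germ cells and early embryos, differed by 0.02 (-0.17 to 0.20, adjusted p = 0.944), and the signs for Nr5a2 and Nr6a1 turned under other settings. Nr0b1 and Nr0b2, corepressors that lack the DNA-binding domain, were dim and differed by -0.07 (-0.24 to 0.09, adjusted p = 0.623) and -0.06. Of the receptor genes outside the naming rule, Pgr, Hnf4a and Hnf4g differed by -0.08, -0.02 and -0.15, and 0 of these 3 passed or had an unadjusted p under 0.05 in limma.

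Receptors act through coregulators, and most of these genes did not pass either. Of 14 coactivator genes 1 fell and 0 rose (median -0.02). The one that fell was Pprc1, a relative of the PGC-1 coactivators that responds to growth signals, at 8.18, 8.30 and 8.31 in CD73+CD105- cells and 7.87, 7.83 and 7.89 in CD73+CD105+ cells. The groups did not overlap, and the difference of -0.40 (SE 0.07) had an adjusted p of 0.0391. That call was lost with the term for replicate 1 (0.132), without any 1 of the 6 arrays (0.0792 to 0.168), with arrays centred on their medians (0.0668) and with a variance trend and robust estimation together (0.0628). Med1, the Mediator subunit that receptors bind, differed by 0.26 (adjusted p = 0.20). Of 7 corepressor genes 0 passed and 2 had an unadjusted p under 0.05 in limma, with a list median of 0.11. These were Gps2 at 0.28 (adjusted p = 0.125) and the deacetylase gene Hdac3 at -0.21 (adjusted p = 0.223). For Gps2 the adjusted p was 0.284 with the term for replicate 1 and 0.0423 with array weights.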

How the data were processed

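RMA, run by the authors, gave the deposited log2 expression values (background correction, quantile normalization and probe set summary), per the submitters' processing notes. Its software and version, and the genome build, are not stated in those notes or other labels. The platform annotation gave 1 gene symbol to 21789 of 35556 probe sets, several to 1621 and, here, none to 12146. Per gene the probe set with the highest mean over the 6 arrays was kept, and all 42 members matched RefSeq by Entrez ID. Differences were fitted with limma 3.58.1 in R 4.3.3 (lmFit and eBayes, two-sided, no covariate) over 19938 genes with Benjamini-Hochberg adjustment, a threshold of 0.05 and no filter. The fit was tested on simulated data with independent noise in each array. Those data lack the pattern of the replicate 1 arrays, so the test says nothing of the p-values under it. The members and lists were chosen with earlier results of these data known. The rule for named genes took the sort markers, members with an unadjusted p under 0.05, the 6 with the highest means (a choice of genes to name, not a ranking of expression), the largest difference of each subfamily, and up to 4 genes per list past the threshold, or the 2 largest differences where fewer than 2 passed; the others are described as members or examples. Of the 129 listed genes, 115 were measured.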

Additional observations from a re-analysis of the deposited data

How the results depend on the processing

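The counts of members, of all genes and of listed genes that passed, and the named genes, were recomputed under 15 other settings; 7 named genes with a mean below the olfactory receptor percentile have no value under the filter at that percentile. Nr2f2 kept its direction in all 15, between 0.998 and 1.18, and passed in 14, including each of the 6 that leave out 1 array. With replicates 2 and 3 only, the exception, 0 members, 29 genes and 3 listed genes passed. Array weights gave 3 members (Nr2f2, Rara and Thrb), 1331 genes and 13 listed genes. Main counts were 1, 363 and 7, and leaving out 1 array gave 1 member, 86 to 293 genes and 3 to 5 listed genes. The lower counts came without CD73+CD105+ replicate 1 (86 genes), CD73+CD105- replicate 1 (87), CD73+CD105- replicate 2 (150) and CD73+CD105+ replicate 3 (169). The term for replicate 1 left 101 genes and 3 listed genes, and the replicate block 215 genes. Same-numbered samples did not deviate together (correlations -0.88, 0.0066 and 0.10 for replicates 1, 2 and 3), and the replicate 1 arrays deviated in opposite directions, so the numbers were not taken as pairs. The block changed none of the member calls. With it Crabp1 (adjusted p = 0.0213) and Rbp7 (0.0495) passed, and Pprc1 (0.137) and Me1 (0.119) did not. The causes of these changes were not tested, and fits that leave out arrays also rest on fewer of them. Of 623 values for 42 named genes, 14 changed sign, all in genes that did not pass. Ptprc was at 0.0156 when quantile normalized again, 0.00242 when centred on medians and 0.0327 in replicates 2 and 3; with array weights Nr5a2 was at 0.0436 and Nr6a1 at -0.0491. Leaving out 1 array moved Ptprc between -0.0427 and 0.0151, Nr5a2 between -0.0733 and 0.0234, and Nr6a1 between -0.0253 and 0.0718. No detection calls were used, so dim signals were judged by the olfactory receptor percentile alone.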

Other observations

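Several members differed in replicate 1 and hardly in replicates 2 and 3. The Esr1 difference was -0.70 in replicate 1 and -0.00770 in replicates 2 and 3, that of Nr3c1 0.51 and 0.06, that of Thra 0.47 and 0.08, and that of Rarb 0.36 and 0.05. Nr4a3 stood at 0.38 in replicate 1 and at -0.17 in the others. The sign differed between replicate 1 and the others in 19 of the 42 members (45.2%) and in 43.8% of all genes. The replicate 1 difference was the larger in size in 28 members, and in 64.7% of all genes, where a single array stands on each side against a mean of 2. Nr2f2 differed by 1.15 in replicate 1 and by 1.07 in replicates 2 and 3. These genes were picked after their values were seen.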
